A study of Homo sapiens with 4 samples.

Results

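The genes described here encode 10 protein kinases of mitosis and of the spindle checkpoint (AURKA, AURKB, PLK1, PLK4, BUB1, BUB1B, TTK, NEK2, MELK and PBK), among the 24462 gene symbols of the series. They were chosen by name, each was found once in every count file, and all 10 passed the filter on low counts used below. HepG2, a human cell line from a hepatocellular carcinoma, was profiled in 4 QuantSeq libraries with 1 library per condition, which leaves every difference without replicates and without a p-value. The DMSO library came from cells given the solvent, and the PD0332991 library from cells given PD0332991, an inhibitor of the kinases CDK4 and CDK6. The scrambled siRNA library came from cells transfected with control oligos, and the CDK4/6 KD library from cells transfected with siRNA oligos against CDK4 and CDK6. How much PD0332991 was given, for how long, and when the transfected cells were harvested for sequencing are not given in the sources used here.

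Many of these kinases are made late in the cell cycle, and the Aurora kinases and PLK1 are destroyed as cells leave mitosis. AURKA and PLK1 mature the centrosomes and drive entry into mitosis, NEK2 separates the centrosomes, and PLK4 starts centriole duplication. AURKB, TTK, BUB1 and BUB1B act at the kinetochore, where chromosomes are held to the spindle and the checkpoint delays anaphase until all are attached. CDK4 and CDK6 phosphorylate the retinoblastoma protein and its relatives, which in their unphosphorylated form hold cell cycle genes off, the late genes through a complex that recognises the CHR, a short element near the transcription start. MYBL2 and FOXM1 later join parts of that complex to switch the same genes on.

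As textbook elements of late cell cycle promoters, the CHR, spelled TTTGAA or TTCGAA, and the CCAAT box were searched for in the promoters of the 10 genes, on both strands. Windows of 300 bases, from 250 before to 50 after the start, were found for 7 of the genes in RefSeq on GRCh38.p14, and the first was used where several starts were listed (AURKB and PLK4). The deposited counts carry symbols only, and the submitters' processing notes name hg19, so no position was carried between builds. The 4 windows below hold a CHR or a CCAAT box on the strand of the gene, and these matches are in capitals, as are matches on the other strand.
PLK1, chr16:23678639-23678938, plus strand: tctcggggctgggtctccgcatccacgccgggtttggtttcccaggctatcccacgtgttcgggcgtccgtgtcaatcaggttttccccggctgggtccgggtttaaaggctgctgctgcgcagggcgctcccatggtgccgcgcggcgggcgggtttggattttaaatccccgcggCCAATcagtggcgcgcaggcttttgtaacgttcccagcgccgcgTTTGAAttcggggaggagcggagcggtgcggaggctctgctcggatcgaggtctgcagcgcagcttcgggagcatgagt
BUB1B, chr15:40160819-40161118, plus strand: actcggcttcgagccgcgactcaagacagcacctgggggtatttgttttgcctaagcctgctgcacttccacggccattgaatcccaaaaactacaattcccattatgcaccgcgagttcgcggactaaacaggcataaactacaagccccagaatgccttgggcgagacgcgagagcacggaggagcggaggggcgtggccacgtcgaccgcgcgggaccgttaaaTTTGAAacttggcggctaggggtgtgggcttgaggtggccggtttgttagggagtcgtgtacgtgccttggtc
BUB1, chr2:110678014-110678313, minus strand: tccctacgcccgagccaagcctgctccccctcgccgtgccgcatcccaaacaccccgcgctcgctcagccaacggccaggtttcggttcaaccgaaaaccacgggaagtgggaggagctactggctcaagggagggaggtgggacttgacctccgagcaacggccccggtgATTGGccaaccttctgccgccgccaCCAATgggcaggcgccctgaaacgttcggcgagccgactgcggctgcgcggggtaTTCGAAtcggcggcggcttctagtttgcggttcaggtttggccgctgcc
NEK2, chr1:211675572-211675871, minus strand: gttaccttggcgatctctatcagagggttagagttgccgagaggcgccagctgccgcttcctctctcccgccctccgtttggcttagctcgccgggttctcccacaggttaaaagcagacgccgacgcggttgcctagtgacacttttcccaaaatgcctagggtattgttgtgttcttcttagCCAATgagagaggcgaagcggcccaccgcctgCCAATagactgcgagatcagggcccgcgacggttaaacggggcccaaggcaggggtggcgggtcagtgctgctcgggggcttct
In PLK1 the first base of TTTGAA lay 29 bases before the start and that of CCAAT 73 before it. In BUB1B the only match was TTTGAA, at 23 bases before the start. BUB1 held TTCGAA at position 2 after the start and CCAAT boxes at 54 bases before it and, on the other strand, at 79. NEK2 held CCAAT boxes at 66 and 34 bases before the start and no CHR spelling. Of the windows not printed, that of PLK4 held TTTGAA on the other strand at position 39 after the start, that of AURKB held a CCAAT box on the other strand at 153 bases before it, and that of MELK held none of the spellings. A CHR spelling was therefore present in 4 of 7 windows, against 16.6% of 27305 RefSeq promoter windows, and CCAAT in 4 of 7 against 35.7%. A match describes the letters of the window and is no evidence of binding in these cells.

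The library totals ran from 8983848 reads for PD0332991 to 11176880 for scrambled siRNA, and values are given as normalised read counts scaled to the library size (CPM) after correction of library size with TMM factors. The method reads each transcript once, near its 3′ end, and long transcripts are not counted more often than short ones. Intervals are exact 95% intervals of counting error, which do not cover variation between cultures or copies made by PCR. The knockdown targets were at 0.203 (CDK4) and 0.241 (CDK6) of their scrambled siRNA level in CDK4/6 KD. All 11 hepatocyte markers were detected in each library, at a summed level of 18478 to 24093 CPM. Of 10 keratinocyte markers, between 3 (DMSO) and 7 (scrambled siRNA) had at least 10 reads, with a summed level of 206 CPM in DMSO, 200.4 in PD0332991, 364 in scrambled siRNA and 204 in CDK4/6 KD. After PD0332991, 4 of the 7 keratinocyte markers with enough reads (KRT5, KRT14, KRT6A and KRT16) were over 2-fold higher than in DMSO. Of all genes tested, 7.49% were at least 2-fold higher. These 4 markers had 2, 9, 9 and 2 reads in DMSO and passed the filter only through PD0332991. The other 2 past 2-fold (SFN and LAMA3) were lower. The median log2 fold change of 3.77 rests on those few DMSO reads. In scrambled siRNA, 5 of 7 were at least 2-fold higher than in DMSO, against 5.3% of genes, with the same DMSO counts. Most of the summed reads were on SFN and KRT10. KRT1 (DMSO), TP63 (scrambled siRNA) and DSG3 (CDK4/6 KD) were at 0 in the library named. The summed level of 8 fibroblast markers was lowest in scrambled siRNA (9.07 CPM), followed by CDK4/6 KD (23.0), DMSO (49.7) and PD0332991 (80.9). DCN was at 0 in both control libraries, FAP in DMSO, and LUM in scrambled siRNA and in CDK4/6 KD. The 7 leukocyte markers summed to between 511 CPM in CDK4/6 KD and 1036 in scrambled siRNA, nearly all of it LYZ (5676 of 5787 reads and 10932 of 11083), with CD3E at 0 throughout, PTPRC at 0 outside DMSO and CSF1R at 0 outside CDK4/6 KD. The 7 endothelial markers together had at most 6 reads in any library. The part of these markers in the results was not tested.

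The kinase genes were highest in DMSO, then in scrambled siRNA, then in CDK4/6 KD, and lowest in PD0332991, and this order held for each of the 10 genes. The share of all genes with this order was not counted. Their summed level was 1180 CPM in DMSO (95% interval 1158 to 1202), 873 in scrambled siRNA (interval 855 to 891), 463 in CDK4/6 KD (interval 451 to 476) and 178 in PD0332991 (interval 170 to 187). None of these intervals overlapped. PD0332991 stood at 0.151 of the DMSO level (interval 0.143 to 0.159), and CDK4/6 KD at 0.531 of scrambled siRNA (interval 0.513 to 0.549). For single genes, neighbours in the order differed by less than counting error in 3 instances: DMSO and scrambled siRNA for BUB1, and scrambled siRNA and CDK4/6 KD for PLK4 and NEK2. In bulk RNA, fewer cells in mitosis and less kinase RNA per cell cannot be told apart.

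**Figure D1:**
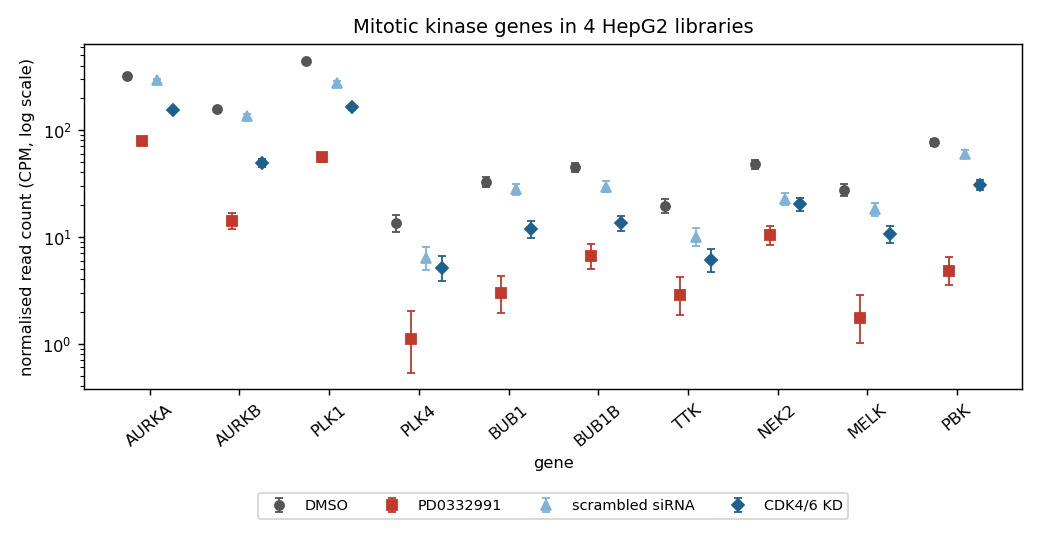
Normalised read count (CPM, log scale) of each kinase gene in the 4 libraries, with exact Poisson 95% intervals of counting error as bars. For every gene the DMSO point is highest and the PD0332991 point lowest, with sums over the 10 genes of 1180 and 178 CPM.

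After PD0332991, all 10 genes were at least 2-fold lower than in DMSO, whereas 7.07% of the 13443 genes tested were. For all 10 the whole counting interval lay past 2-fold, against 3.38% of genes, all 10 were past 1.5-fold, against 15.1%, and all 10 had an interval under 1, against 28.6%. No kinase gene was at least 2-fold higher, against 7.49% of genes. The median log2 fold change was -3.22 over the kinases and 0.018 over all genes tested. The genes were between 4.08-fold (AURKA) and 15.7-fold (PBK) lower.

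In CDK4/6 KD, 3 of the 10 genes were at least 2-fold lower than in scrambled siRNA, beside 7.62% of the 13617 genes tested. These were AURKB, BUB1 and BUB1B. The whole interval lay past 2-fold for AURKB alone, against 3.22% of genes, while 8 genes were past 1.5-fold, against 17.4%. All 10 were lower, as were 6843 of the 13617 genes tested. The interval lay under 1 for 8 of the 10, against 31.9% of genes, and none was 2-fold higher, against 9.19% of genes. The median log2 fold change was -0.84 over the kinases and -0.0036 over all genes tested.

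The control libraries themselves differed in these genes. In scrambled siRNA all 10 were lower than in DMSO, as were 6563 of the 13303 genes tested. The interval lay under 1 for 9 of the 10, against 28% of genes, and the median log2 fold change was -0.60, against 0.0088 over all genes tested. PLK4 and NEK2 were at least 2-fold lower, beside 6.64% of genes, 6 of the 10 were past 1.5-fold, against 15.7%, and no whole interval lay past 2-fold, against 1.99%. None was 2-fold higher, against 5.3%. Which control was used therefore bore on the knockdown. Set against DMSO, all 10 genes were at least 2-fold lower in CDK4/6 KD, beside 8.16% of genes, with fold changes from 0.300 for BUB1B to 0.479 for AURKA and a median log2 fold change of -1.41. PD0332991 set against scrambled siRNA again had all 10 genes at least 2-fold lower, beside 8.17% of genes, with a median of -2.40. These comparisons share libraries, and how much of the difference between the controls came from transfection or from the culture was not tested.

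**Figure D2:**
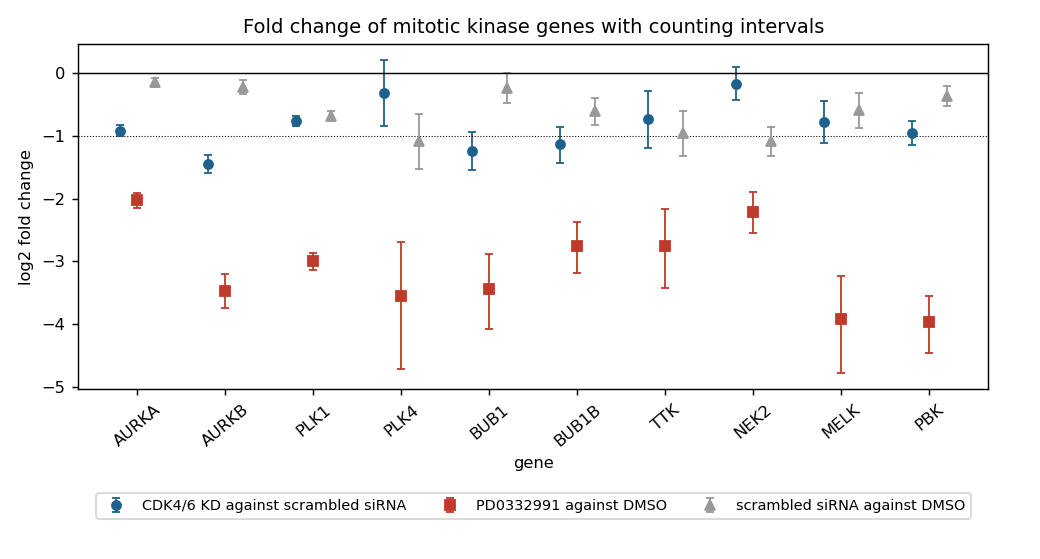
Log2 fold change of each kinase gene in CDK4/6 KD against scrambled siRNA, PD0332991 against DMSO and scrambled siRNA against DMSO, with 95% counting intervals as bars and a dotted line at 2-fold lower. The PD0332991 points run from -2.03 to -3.98 and lie under the CDK4/6 KD points of every gene.

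The Aurora kinases differed from each other in fold change beyond counting error. AURKA, which matures centrosomes and builds the spindle, had 321 CPM in DMSO, 78.6 in PD0332991, 290.3 in scrambled siRNA and 154 in CDK4/6 KD. It had the highest fold change of the 10 after PD0332991 (0.245, 95% interval 0.226 to 0.266), and in the knockdown it was at 0.529 of scrambled siRNA (interval 0.499 to 0.561). AURKB, the catalytic subunit of the chromosomal passenger complex, had 156 CPM in DMSO, 14.1 in PD0332991, 134 in scrambled siRNA and 49.2 in CDK4/6 KD. It was lower than AURKA in fold change in both comparisons, at 0.0904 after PD0332991 (interval 0.0746 to 0.108). In CDK4/6 KD it was at 0.368 of scrambled siRNA (interval 0.333 to 0.406), the lowest of the 10 with that control. Within a library the ratio of AURKA to AURKB reads needs no scaling. It was 2.06 in DMSO and 2.17 in scrambled siRNA, with overlapping intervals, 3.12 in CDK4/6 KD (interval 2.83 to 3.44) and 5.59 in PD0332991 (interval 4.63 to 6.81). AURKC, the third Aurora gene, had between 2 and 17 reads, and its interval in CDK4/6 KD included 1 (0.905 to 6.55).

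The Polo-like kinases were at very different depths. PLK1, which drives mitotic entry and cytokinesis and whose promoter carries both CHR and CCAAT, was the most counted of the 10 genes in DMSO, at 441 CPM, with 55.2 in PD0332991, 275 in scrambled siRNA and 163 in CDK4/6 KD. Its fold changes were 0.125 after PD0332991 (interval 0.114 to 0.138) and 0.591 in CDK4/6 KD (interval 0.557 to 0.626), and in scrambled siRNA it was 0.625 of the DMSO level (interval 0.595 to 0.655). The steps from DMSO to scrambled siRNA and from there to CDK4/6 KD were thus of like size for PLK1. PLK4, the kinase of centriole duplication, rested on 123 reads in DMSO, 10 in PD0332991, 68 in scrambled siRNA and 58 in CDK4/6 KD. It was lower after PD0332991 (fold change: 0.085, interval 0.0382 to 0.155), while in CDK4/6 KD its interval included 1 (fold change: 0.808, interval 0.558 to 1.16). Between the controls PLK4 was at 0.474 of the DMSO level in scrambled siRNA (interval 0.346 to 0.640), an interval that overlaps the one in CDK4/6 KD.

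The checkpoint kinases BUB1 and BUB1B were lower in both comparisons. BUB1, which recruits checkpoint proteins to the kinetochore, had 32.6 CPM in DMSO, 2.97 in PD0332991, 27.8 in scrambled siRNA and 11.8 in CDK4/6 KD. Its control libraries were not separable by counting error, and its fold changes were 0.0923 after PD0332991 (interval 0.0589 to 0.135) and 0.424 in CDK4/6 KD (interval 0.342 to 0.521). BUB1B, which encodes BUBR1 of the mitotic checkpoint complex, had 44.9 CPM in DMSO, 6.59 in PD0332991, 29.5 in scrambled siRNA and 13.4 in CDK4/6 KD. Its fold changes were 0.148 (interval 0.110 to 0.193) and 0.456 (interval 0.372 to 0.553). TTK, also called MPS1, which starts the checkpoint signal, had 178 reads in DMSO, 26 in PD0332991, 107 in scrambled siRNA and 68 in CDK4/6 KD. It was lower after PD0332991 (fold change: 0.149, interval 0.0932 to 0.222) and, with a wider interval, in CDK4/6 KD (fold change: 0.603, interval 0.437 to 0.822).

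NEK2 stood at the other end from AURKB in the knockdown, with scrambled siRNA as the control. With DMSO as the control, the ends were BUB1B (0.300) and AURKA (0.479), and NEK2 was at 0.422 (interval 0.357 to 0.495). NEK2 had 437 reads in DMSO, 94 in PD0332991, 242 in scrambled siRNA and 228 in CDK4/6 KD, or 47.8, 10.3, 22.6 and 20.1 CPM. The interval of CDK4/6 KD against scrambled siRNA included 1 (fold change: 0.891, interval 0.740 to 1.07), whereas scrambled siRNA was at 0.473 of DMSO (interval 0.402 to 0.555) and PD0332991 at 0.217 of DMSO (interval 0.171 to 0.270).

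MELK and PBK, kinases of dividing cells known as tumour proliferation markers, had the lowest fold changes after PD0332991. MELK had 250 reads in DMSO, 16 in PD0332991, 194 in scrambled siRNA and 120 in CDK4/6 KD. Its level was 0.0659 of DMSO with the inhibitor (interval 0.0361 to 0.106) and 0.586 of scrambled siRNA with the knockdown (interval 0.462 to 0.738). PBK had 701, 44, 636 and 348 reads in the same order. Its level was 0.0636 (interval 0.0454 to 0.0855) and 0.518 (interval 0.453 to 0.590) of the respective control. The intervals of MELK and PBK overlapped in both comparisons.

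Set side by side, the fold change in CDK4/6 KD was higher than that after PD0332991 for all 10 genes, and the intervals of each gene lay apart. The share of all genes with intervals apart in this way was not counted. The ratio of the fold changes ran from 2.16 for AURKA to 9.51 for PLK4. The comparisons use different controls and 1 library each, and the difference between knockdown and inhibitor was not tested. MKI67, which encodes the proliferation marker Ki67, was at 0.561 of its control in the knockdown and at 0.0757 with the inhibitor, within the range of the kinases in both.

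The make-up of the kinase reads differed between the libraries. Of the reads of the 10 genes, AURKA took 27.2% in DMSO, 33.3% in scrambled siRNA (95% Clopper-Pearson interval 32.3 to 34.2), 33.2% in CDK4/6 KD (interval 31.9 to 34.4) and 44.1% in PD0332991 (interval 41.7 to 46.5). NEK2 also held a larger share after PD0332991 than in DMSO, at 5.79% (interval 4.70 to 7.04) against 4.05% (interval 3.69 to 4.44). The shares of PBK went from 6.50% to 2.71% (interval 1.98 to 3.62), of AURKB from 13.2% to 7.88% (interval 6.62 to 9.30), and of PLK1 from 37.3% to 31.0% (interval 28.7 to 33.3). PLK1 had a like share in scrambled siRNA, at 31.5% (interval 30.6 to 32.5). In the knockdown, the share of AURKB was 15.3% in scrambled siRNA and 10.6% in CDK4/6 KD (interval 9.80 to 11.5), while that of NEK2 was 2.59% and 4.35% (interval 3.81 to 4.94). Shares within a library do not depend on its size or on the scaling.

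**Figure D3:**
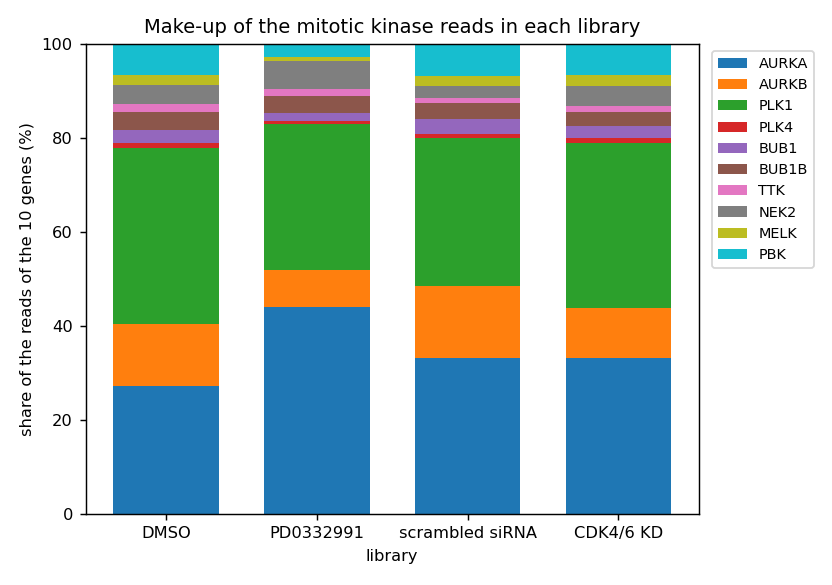
Share of the reads of the 10 kinase genes (%) taken by each gene in each library, as stacked bars that start at 0 and sum to 100%. The AURKA segment grows from 27.2% in DMSO to 44.1% in PD0332991, and the PBK segment shrinks from 6.50% to 2.71%.

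Genes counted beside the kinases bear on what their reads are. In GENCODE 29 on GRCh38, PLK1 lies on chromosome 16 from 23677656 to 23690367 on the plus strand, and ERN2, on the minus strand, overlaps its 3′ end. ERN2 reads numbered 3631 (DMSO), 440 (PD0332991), 2602 (scrambled siRNA) and 1680 (CDK4/6 KD) in the same libraries. These were 90.2%, 87.5%, 88.4% and 91.3% of the PLK1 reads, a ratio that did not differ between libraries beyond counting error. The strand setting of the counting is not known from the sources used here, so reads of PLK1 and ERN2 cannot be told apart. AURKAPS1, which RefSeq lists as a pseudogene of AURKA, had reads equal to 22.5% of those of AURKA in DMSO, 26.3% in PD0332991, 22.9% in scrambled siRNA and 24.9% in CDK4/6 KD, again with overlapping intervals. ESCO2, on the strand opposite to PBK over its 3′ end, had 22.5%, 18.2%, 13.7% and 21.8% of the PBK reads, the scrambled siRNA interval (10.8 to 17.1) lying under that of DMSO (18.8 to 26.8). PAK6, which shares a read-through transcript with BUB1B, had at most 1 read.

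**Figure D4:**
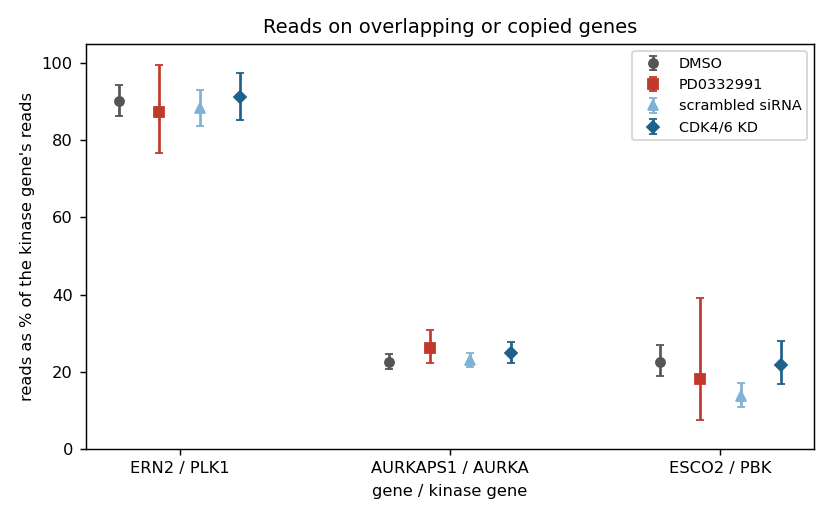
Reads on ERN2, AURKAPS1 and ESCO2 as a percentage of the reads of PLK1, AURKA and PBK in each library, with 95% Clopper-Pearson intervals as bars. The ERN2 points lie between 87.5% and 91.3% in all 4 libraries.

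ERN2 was also nearest in profile to the kinases, but this rank is not independent of them. PLK1 is part of their mean profile, and reads of ERN2 and PLK1 cannot be told apart. Over the 4 libraries, among 9221 other genes that averaged 100 reads or more, the genes nearest to the mean profile of the kinases (log2 CPM centred on each gene's mean, Euclidean distance) were ERN2 (distance 0.134), BIRC5 (0.152), NDC80 (0.200), POLQ (0.211) and KIAA1524 (0.216). The kinases themselves lay between 0.141 (PLK1) and 0.996 (NEK2) from their own mean. BIRC5, or survivin, which holds AURKB in the chromosomal passenger complex, had 215 CPM in DMSO, 27.5 in PD0332991, 136 in scrambled siRNA and 82.6 in CDK4/6 KD.

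Other genes of the pathway were taken by list. Of 19 further cell cycle kinases, 4 were at least 2-fold lower and 1 higher in CDK4/6 KD (median log2 fold change -0.39), and of the 18 past the filter after PD0332991, 9 were lower and 0 higher (median -0.91). CDK1, the kinase of mitotic entry, was lower in both, at 0.316 in CDK4/6 KD (interval 0.270 to 0.368) and 0.0825 after PD0332991 (interval 0.0647 to 0.103). CHEK1, the DNA damage checkpoint kinase, at 0.400 and CIT, citron kinase of cytokinesis, at 0.442 were next in CDK4/6 KD. VRK1 at 0.164 and PKMYT1, an inhibitor of CDK1, at 0.185 were next after PD0332991. The gene furthest upward in CDK4/6 KD was AURKC, on few reads, and after PD0332991 it was NEK9 (fold change: 1.88, interval 1.65 to 2.17), a kinase that acts upstream of NEK6 and NEK7.

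Of 18 activators, scaffolds and partners of the kinases, 5 were at least 2-fold lower in CDK4/6 KD and 16 after PD0332991, none being 2-fold higher in either, with median log2 fold changes of -0.74 and -2.68. TPX2, the activator of AURKA, was at 0.446 in CDK4/6 KD (interval 0.418 to 0.476), INCENP, the scaffold that activates AURKB, at 0.412 and ECT2, an exchange factor of cytokinesis, at 0.385. After PD0332991 the firmest were ZWINT at 0.0745, CDCA8 at 0.0979 and BIRC5 at 0.128, the last 2 being partners of AURKB. BUB3, which binds both BUB1 and BUB1B, was furthest upward in CDK4/6 KD (fold change: 1.14, interval 1.09 to 1.20), but against DMSO its interval included 1 (0.949 to 1.05).

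Regulators of mitotic gene transcription were mixed. Of 21, 4 were at least 2-fold lower in CDK4/6 KD and 9 after PD0332991, and none was 2-fold higher in either, with medians of -0.19 and -0.66. MYBL2, which switches on late cell cycle genes, was at 0.332 (interval 0.302 to 0.366) and 0.113 (interval 0.0972 to 0.130). With it stood CDKN1A, the CDK inhibitor p21, at 0.354 and E2F3 at 0.447 in CDK4/6 KD, and E2F2 at 0.0422 and E2F1 at 0.117 after PD0332991. CDKN1A also separated the controls, with 2.53 times the DMSO level in scrambled siRNA. FOXM1, chosen after its values were seen, stood at 0.599 in the knockdown (interval 0.518 to 0.690) and at 0.217 with the inhibitor (interval 0.178 to 0.263). RB1 was furthest upward in the knockdown (fold change: 1.75, interval 1.47 to 2.09). Its level was 34.0 CPM in DMSO, 32.3 in CDK4/6 KD and 18.5 in scrambled siRNA, and with DMSO as the control the interval included 1 (0.814 to 1.11). LIN37 was furthest upward after PD0332991 (fold change: 1.63, interval 1.05 to 2.57).

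Among 16 phosphatases that oppose or activate these kinases and factors of their degradation, 3 were at least 2-fold lower in CDK4/6 KD and 5 after PD0332991, none being 2-fold higher, with medians of -0.050 and -0.34. CDC25A, which activates CDKs, was at 0.275 and 0.165, and FBXO5, an inhibitor of the anaphase-promoting complex, at 0.481 and 0.145. PPP2R1A, the scaffold of the phosphatase PP2A, was at 0.222 in CDK4/6 KD, and CDC25C at 0.174 after PD0332991. FZR1, the activator that marks Aurora kinases and PLK1 for destruction, was furthest upward in the knockdown (fold change: 1.53, interval 1.18 to 1.99), though not with DMSO as the control (0.960, interval 0.757 to 1.22), and BTRC after PD0332991 (fold change: 1.45, interval 1.21 to 1.76).

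Replication licensing genes, listed here together with the origin-firing factors MCM10, CDC45 and GINS1 to GINS4, were set beside the kinases as genes of DNA replication, which comes before mitosis in the cycle. Of 16, 12 were at least 2-fold lower in CDK4/6 KD, against 3 of the 10 kinases, and the median log2 fold change was -1.25, against -0.84. After PD0332991 all 16 were at least 2-fold lower, with a median of -2.76, against -3.22 for the kinases. The order of the medians was thus opposite in the 2 comparisons, a difference that was not tested. Its size depended on the control. Against DMSO, all 10 kinases and all 16 licensing genes were at least 2-fold lower in CDK4/6 KD, with medians of -1.41 and -1.69. PD0332991 against scrambled siRNA had medians of -2.40 for the kinases and -2.32 for the licensing genes. Against their own controls, ORC1 at 0.209, GINS1 at 0.290 and MCM7 at 0.370 were firmest in CDK4/6 KD. After PD0332991 the firmest were MCM10 at 0.0508, CDC6 at 0.0572 and GINS2 at 0.0988. Between the controls the median of the licensing genes was -0.41, against -0.60 for the kinases.

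**Figure D5:**
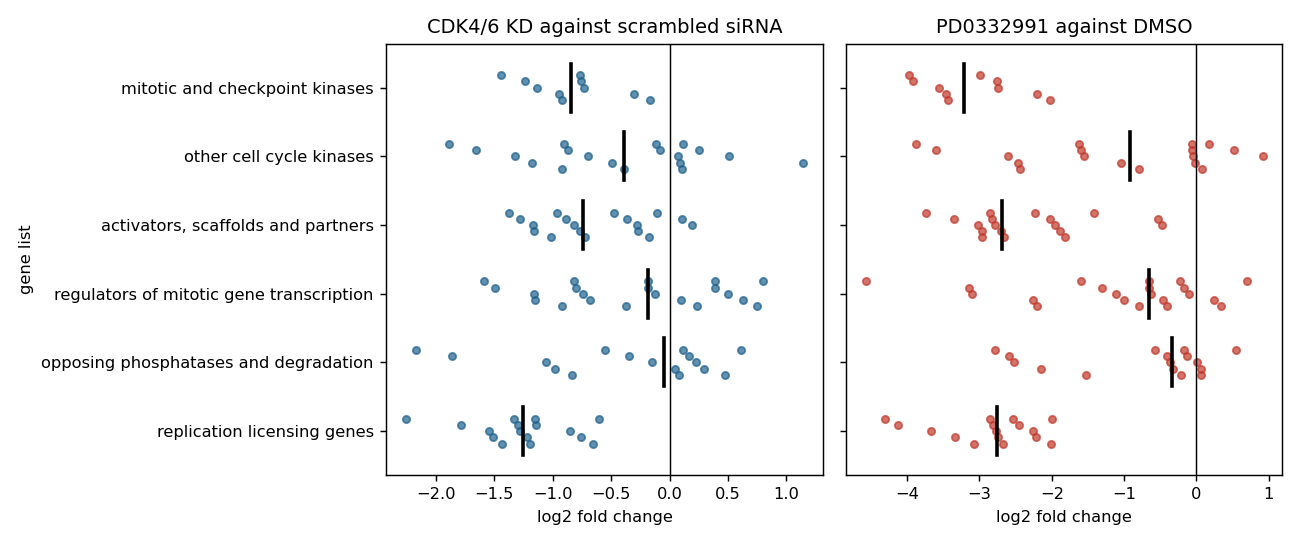
Log2 fold change of each gene past the filter (points) and the median (black bar) for the kinases and the related lists, in CDK4/6 KD against scrambled siRNA and in PD0332991 against DMSO. The kinases have medians of -0.84 and -3.22, and the replication licensing genes of -1.25 and -2.76.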

How the data were processed

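RNA of 4 HepG2 samples was sequenced from the 3′ end (QuantSeq, single-end). Read counts per gene, not normalized, are what the authors deposited. The submitters' processing notes name Bowtie2, edgeR and hg19, and the counter, annotation and strand setting are not given in the sources used here. Samples were grouped by their titles. The files list 25737 entries, and counts of 286 repeated symbols were summed.

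Library sizes were corrected with TMM factors (edgeR 4.0.16, R 4.3.3) over all libraries. A gene entered a fold change if either library held 10 reads of it, 0.5 reads (in proportion to library size) were added, and 2-fold was the threshold. Precision is given by exact 95% intervals (Clopper-Pearson, scipy 1.17.1) of how a gene's reads divide between libraries. The intervals were run on simulated Poisson counts, the spread that they assume. Those counts hold no PCR copies and no variation between cultures, so the run could not test for either. With no replicates, no edgeR test was planned or run. The alternatives were other scalings (DESeq2 1.42.0, limma 3.58.1), pseudocounts, filters, thresholds, controls and handling of repeated symbols.

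All 10 kinases were named, with CDK4, CDK6, MKI67, the 5 genes of nearest profile and, per list, up to 3 genes with the median of the list by the interval end nearest to 1 and the furthest against it. Of the related lists, CDKN1A, RB1, BUB3, FZR1 and NEK9 alone were named with the other control, an alternative chosen after seeing the data, or between the controls. FOXM1, AURKAPS1, ESCO2, PAK6, PLK3, NFYA, RBBP4, PPP1CC, ENSA and single cell type markers were named after their values were seen. The members and lists were chosen with earlier results of these data known.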

Additional observations from a re-analysis of the deposited data

Results flagged for a closer look

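Of the kinases and the genes named from the lists, 4 had intervals off 1 in opposite directions in the 2 comparisons, a difference that was not tested and rests on 1 library per condition. NEK9 had a fold change of 0.615 in CDK4/6 KD and 1.88 after PD0332991, and with the controls exchanged 0.585 and 1.98. The other 3 depended on the control. CDKN1A had a fold change of 0.354 in CDK4/6 KD and 1.27 after PD0332991, and with the controls exchanged 0.896 (interval 0.828 to 0.970) and 0.5003 (interval 0.471 to 0.531). RB1 had a fold change of 1.75 in CDK4/6 KD and 0.498 after PD0332991, and with the controls exchanged both intervals included 1 (0.814 to 1.11 and 0.736 to 1.13). BUB3 had a fold change of 1.14 in CDK4/6 KD and 0.690 after PD0332991, and with the controls exchanged 0.996 (interval 0.949 to 1.05) and 0.791 (interval 0.748 to 0.837). None of the 10 kinase genes had intervals off 1 in opposite directions, and the share of all genes that did was not counted. The 4 are not a full count of the lists. Listed genes not named above also did so, with fold changes in CDK4/6 KD and after PD0332991 as follows. They were 0.535 and 1.44 for PLK3, 1.68 and 0.637 for NFYA, and 1.17 and 0.854 for RBBP4. PPP1CC had 1.22 and 0.885, and ENSA 1.08 and 0.778.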

How the results depend on the processing

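All 10 kinase genes stayed lower in both comparisons and between the controls under every scaling, pseudocount, filter and control tried. Of the alternatives, the control alone moved the median log2 fold change beyond the median counting interval: in CDK4/6 KD to -1.41, with 10 genes at least 2-fold lower, against DMSO, and after PD0332991 to -2.40 against scrambled siRNA. In CDK4/6 KD the number of genes lower was 8 at a threshold of 1.5-fold and 1 when the interval, not the value, was held to 2-fold. Between the controls it was 6 and 0 in the same way, with 1 under quantile normalization and 3 under total counts alone. Of the values of single genes under the alternatives, 69 of 80 in CDK4/6 KD, 74 of 80 after PD0332991 and 70 of 70 between the controls stayed within their counting intervals. With the other control, an alternative chosen after seeing the data, log2 fold changes turned sign for BUB3 (-0.0054), FZR1 (-0.059) and RB1 (-0.074) in CDK4/6 KD. After PD0332991 they turned sign for CDKN1A (-0.999) and FZR1 (0.346). For FZR1 after PD0332991 the interval included 1 with either control (0.612 to 1.04 and 0.956 to 1.69). Total counts alone moved the median of all genes in CDK4/6 KD to 0.10. With 10 to 94 reads per gene for 7 of the kinases after PD0332991, depth limits the lower bound of those fold changes. No paired analysis was possible because each condition had 1 library.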
